A study of Homo sapiens with 9 samples.

Results

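The integrated stress response and the unfolded protein response of the endoplasmic reticulum (ER) were followed through 10 genes: ATF4, DDIT3, DDIT4, TRIB3, CHAC1, ASNS, SESN2, PPP1R15A, XBP1 and HSPA5. They were chosen by name, and all 10 were found among the 26869 genes of the series. They occupied 28 rows of the table, which came down to 11 distinct 3′ intervals because transcripts of a gene that share an interval repeat its values. XBP1 was the gene with more than 1 interval.

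The libraries came from SLAM-Seq, a method in which 4-thiouridine (4sU) is built into RNA made during a pulse and is then read as C instead of T after alkylation with iodoacetamide. All of them were made from MCF10A, a cell line of human mammary epithelium that is not transformed, in which JUN had been knocked out and replaced by a JUN fusion with an auxin-inducible degron (JUN-AID), together with the auxin receptor TIR1. There were 3 groups labelled with 3 replicates each: cells without 4sU, for which the labels do not say whether DMSO was given, cells with DMSO and 100 µM 4sU for 1 h, and cells with 100 µM of the auxin indole-3-acetic acid (IAA) for 1 h, which triggers degradation of the JUN fusion, followed by 100 µM 4sU for 1 h. Libraries were QuantSeq 3′ libraries, so that a read marks the 3′ end of a transcript.

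Library totals ranged from 18997637 to 24014195 reads. The 3 IAA columns were identical in every row and were counted as 1 library, which left 7 distinct libraries and no replicate check for IAA. The study calls its SLAM-Seq replicates biological, while the labels do not say that they were separate cultures, so p-values measure the spread between these libraries. Over 11762 genes, the median share of T positions read as C was 0.049% to 0.050% without 4sU, 0.191% to 0.265% with DMSO and 4sU, where replicate 1 was the highest, and 0.244% with IAA and 4sU. Basal epithelial markers were present in every library, with KRT5 at 519 to 709 CPM (reads scaled to library size) and TP63 at 30.5 to 39.4 CPM, while KRT14 was low at 3.63 to 10.6 CPM and the leukocyte marker PTPRC was at 0. JUN mRNA was at 20.3 to 62.9 CPM, which does not check the depletion of the JUN protein.

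In the integrated stress response, stress kinases phosphorylate the translation initiation factor eIF2, which lowers protein synthesis as a whole while translation of the transcription factor ATF4 rises. ATF4 then switches on genes for amino acid supply, redox balance and, under lasting stress, cell death, and PPP1R15A brings a phosphatase back to eIF2 to end the response. In the unfolded protein response, the ER chaperone HSPA5 (BiP) senses and binds unfolded proteins, and splicing of XBP1 mRNA by IRE1 yields a transcription factor that enlarges the folding capacity of the ER.

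The regulatory sequences named for these pathways were looked up in RefSeq promoter windows of assembly GRCh38.p14, which run from 250 bases before to 50 bases after a gene's start. All 10 genes had a window, and they had 16 windows in total. A gene was counted when any of its windows held the motif, while the shares are per window. The C/EBP-ATF response element (CARE, searched as TGATGNAAN, like all motifs on both strands) was present in 3.61% of 35116 windows and in those of CHAC1 and ASNS. The ER stress response element (ERSE, CCAAT and CCACG with any 9 bases between them) was present in 0.0769% of windows, that is 27, and in those of XBP1 and HSPA5. The cyclic AMP response element (CRE, TGACGTCA) was present in 1.85% of windows, PPP1R15A among them. The AP-1 site, to which JUN dimers bind, was searched loosely as TGANTCA, so that any middle base counted. Such a match was present in 7.71% of windows, with TGACTCA in DDIT3 and TGAATCA in HSPA5. The windows of ATF4, DDIT4, TRIB3 and SESN2 held none of these letters, and no member held the second ER stress element (ERSE-II, ATTGG and CCACG with any base between them, in 0.0541% of windows) or the unfolded protein response element (UPRE, TGACGTGG, in 0.729%). The matches are shown because motifs of these kinds are bound by ATF4, the ER stress factors and JUN, and they are matches of letters only. Capitals mark the match, positions are counted in bases from the gene's start, negative before it, and each sequence is given 5′ to 3′ on the strand of the gene.

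CHAC1 CARE, reverse strand of the motif, at -210 from the start, chr15:40953251-40953279, plus strand: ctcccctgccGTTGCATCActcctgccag
ASNS CARE, at -68 from the start, chr7:97872458-97872486, minus strand: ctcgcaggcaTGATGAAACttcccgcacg
XBP1 ERSE, at -52 from the start, chr22:28800598-28800626, minus strand: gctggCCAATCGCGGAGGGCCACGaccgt
HSPA5 ERSE, at -66 from the start, chr9:125241386-125241414, minus strand: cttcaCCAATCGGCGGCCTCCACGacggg
PPP1R15A CRE, at -58 from the start, chr19:48872353-48872380, plus strand: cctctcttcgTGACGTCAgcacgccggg
DDIT3 AP-1, at -241 from the start, chr12:57520739-57520764, minus strand: gcgcgcgcaTGACTCAcccacctcct
HSPA5 AP-1, at -184 from the start, chr9:125241511-125241537, minus strand: tagcagccaaTGAATCAgctggggggg

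Because the rate measured here depends on how fast an mRNA is replaced, the pentamer ATTTA of AU-rich elements, which are known to speed mRNA decay, was counted in the 3′ intervals on GRCh37 (hg19), the build in the labels. DDIT3 held 2 pentamers, as did PPP1R15A, whereas 8.67% of 473 intervals of like length held at least as many for DDIT3 and 1.33% of 226 for PPP1R15A. CHAC1 held 1, and 65.7% of 717 intervals of like length held at least as many. XBP1 held 4 in both of its intervals, and at least as many were held by 6.45% of 698 intervals of the length of the shorter and 20.6% of 794 of the length of the longer one. HSPA5 held 4, and 46.8% of 835 held at least as many. ATF4, DDIT4, TRIB3, ASNS and SESN2 held none. At least 1 was held by 11.1% of 226 intervals of like length for ATF4 and 18% of 350 for ASNS. For DDIT4, TRIB3 and SESN2 these shares were 71.6% of 753, 72.6% of 774 and 87.1% of 846. DDIT3 and CHAC1 each also held 1 copy of the longer AU-rich motif TTATTTATT, and no other member did. At least 1 copy was held by 1.48% of intervals of like length for DDIT3 and 5.3% for CHAC1. Whether these motifs bear on the rates was not tested. The intervals of DDIT3, TRIB3 and SESN2 and the shorter one of XBP1 matched an annotated 3′ UTR exactly, and the others were placed by their length from the stop codon. For each of the 3 members with the fewest reads 1 window is shown, in the sense of the mRNA, with 1 ATTTA in capitals. The other pentamer of DDIT3 overlaps the one in capitals and begins with its last A. That of PPP1R15A lies apart, in lower case in the same window.

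DDIT3, chr12:57910403-57910431, minus strand: tagagattgtacATTTAtttattactgtc
CHAC1, chr15:41248157-41248185, plus strand: acttgaaactttATTTAttgcaccatgtt
PPP1R15A, chr19:49379250-49379278, plus strand: aatttattaactATTTAttttttctaagt

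The first comparison, DMSO with 4sU against no 4sU, asked how much of each mRNA was made during the pulse. If the cells without 4sU received no DMSO, the effects of DMSO and 4sU cannot be told apart here. The T>C conversion rate, the share of T positions read as C, rose in 9 of 10 members, while 48.6% of the 10895 genes tested rose (5299 genes, against 10 that fell). The test was limma on log2(rate + 0.0005) with a Benjamini-Hochberg adjusted p of 0.05. Of the 7364 genes with at least 200 reads on average, tested on their own, 4520 rose. The median log2 change was 2.95 over the members and 1.27 over all genes tested. The 3 labelled libraries lay above the 3 unlabelled ones in 9 of 10 members and in 62.8% of all genes. When each library was centred on its median, which removes the rise shared by the whole library, 920 genes rose and 310 fell. Under that centring DDIT4, SESN2 and XBP1 stayed called by limma, and DDIT3 (adjusted p = 0.0447) and CHAC1 (adjusted p = 0.0496) passed narrowly. ATF4 (adjusted p = 0.0703), TRIB3 (adjusted p = 0.146) and PPP1R15A (adjusted p = 0.0573) were no longer called by limma, and ASNS and HSPA5 changed sign.

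DDIT4, an inhibitor of mTORC1 signalling that is induced by stress and hypoxia, had the highest rate of the 10. DDIT4 lies on chromosome 10 at 74033678 to 74035794 of GRCh37, on the plus strand. Its rate was 0.0690%, 0.0680% and 0.0248% without 4sU, and 8.64%, 7.27% and 7.37% with DMSO and 4sU. The groups were far apart, at 7.76% ± 0.764 (SD, n = 3) with the pulse. The limma log2 change was 6.26 (SE 0.39, adjusted p = 0.000581). Of the 7379 genes with at least 200 reads on average, 4 had a higher mean rate, and the median of these genes was 0.205%. The value rested on 183 to 280 reads per labelled library in an interval of 854 bases with 224 T.

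PPP1R15A, the regulatory subunit that directs protein phosphatase 1 to eIF2, came next in the order. PPP1R15A lies on chromosome 19 at 49375469 to 49379316, on the plus strand. Its rate was 3.85%, 2.66% and 2.57% with DMSO and 4sU, but also the highest of the members without 4sU, at 0.296%, 0.474% and 0.381%. The groups did not overlap, and the log2 change was 2.82 (SE 0.41, limma adjusted p = 0.00405). Its interval is 92 bases long, and 116 to 181 reads stood behind each labelled value.

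CHAC1, a glutathione-degrading enzyme that ATF4 induces, followed. CHAC1 lies on chromosome 15 at 41245160 to 41248710, on the plus strand. Its rate was 1.41%, 1.32% and 2.24% with DMSO and 4sU, and was listed at 0 in 2 libraries without 4sU and at 0.178% in the other. The log2 change of 4.32 (SE 0.69, limma adjusted p = 0.00535) therefore depends on the pseudocount. At 37 to 68 reads per labelled library, CHAC1 was thinly covered.

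SESN2, a leucine sensor that restrains mTORC1, lies on chromosome 1 at 28586029 to 28609002, on the plus strand. Its rate was 1.72%, 1.19% and 1.51% with DMSO and 4sU and at most 0.0574% without. The rise was 4.06 on the log2 scale (SE 0.34, limma adjusted p = 0.00111). Its interval of 1692 bases was an annotated 3′ UTR from the stop codon to the end of the gene.

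DDIT3, which encodes CHOP, the pro-apoptotic factor of both stress responses, lies on chromosome 12 at 57910371 to 57915520, on the minus strand. Its rate was 1.44%, 0.842% and 1.17% with DMSO and 4sU, against 0.161%, 0.0637% and 0.0604% without. The rise was 3.09 on the log2 scale (SE 0.42, limma adjusted p = 0.00339). Only 28 to 65 reads stood behind each labelled value.

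XBP1, the transcription factor activated by IRE1, lies on chromosome 22 at 29190543 to 29196585, on the minus strand. Both of its intervals end at the same base, and they start at the stop codons of the spliced and unspliced reading frames, so the longer one contains the shorter. The longer one, of 989 bases, had a rate of 1.24%, 1.02% and 0.843% with DMSO and 4sU and at most 0.0482% without. The shorter one, of 618 bases, gave 1.04% ± 0.201 (SD, n = 3) against 1.03% ± 0.198 in the longer one. The values cannot separate the spliced from the unspliced mRNA, since reads lie at the shared 3′ end. The rise of the mean of both intervals was 3.55 on the log2 scale (SE 0.32, limma adjusted p = 0.00124).

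TRIB3, a pseudokinase induced by ATF4 and CHOP that feeds back on ATF4, lies on chromosome 20 at 343479 to 378203, on the plus strand. It had the widest spread between labelled libraries relative to its mean, at 1.34%, 0.423% and 0.753%, on 284 to 287 reads each. All of these were above the 0.0521% to 0.148% without 4sU, and the rise was 2.52 on the log2 scale (SE 0.51, limma adjusted p = 0.0110).

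ATF4 itself lies on chromosome 22 at 39915700 to 39918688, on the plus strand. Its rate was 0.631%, 0.478% and 0.554% with DMSO and 4sU and 0.0629% to 0.0804% without, on 3640 to 5571 reads per labelled library. The rise was 2.31 on the log2 scale (SE 0.29, limma adjusted p = 0.00266). With 13.0% of the genes of 200 or more reads above it, the rate of ATF4 was lower than that of each target of it in the set except ASNS, although the libraries of ATF4 and TRIB3 overlapped.

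ASNS, the asparagine synthetase, and HSPA5, the ER chaperone, had the lowest rates. ASNS lies on chromosome 7 at 97480989 to 97501854, on the minus strand, and HSPA5 on chromosome 9 at 127997132 to 128003661, also on the minus strand. The rate of ASNS was 0.275%, 0.365% and 0.118% with DMSO and 4sU and 0.0703%, 0.0542% and 0.142% without. These groups overlapped, and the difference of 1.08 on the log2 scale (SE 0.45) did not pass in limma (adjusted p = 0.0881). Without DMSO 4sU replicate 3 it passed, with a log2 change of 1.45 and an adjusted p of 0.0387. The rate of HSPA5 was 0.218%, 0.189% and 0.155% with DMSO and 4sU, on 15143 to 16946 reads, against 0.0552% to 0.0641% without. HSPA5 thus rose by 1.13 (SE 0.23, limma adjusted p = 0.0110). With centred libraries its difference was -0.24 and did not pass (adjusted p = 0.467).

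**Figure D1:**
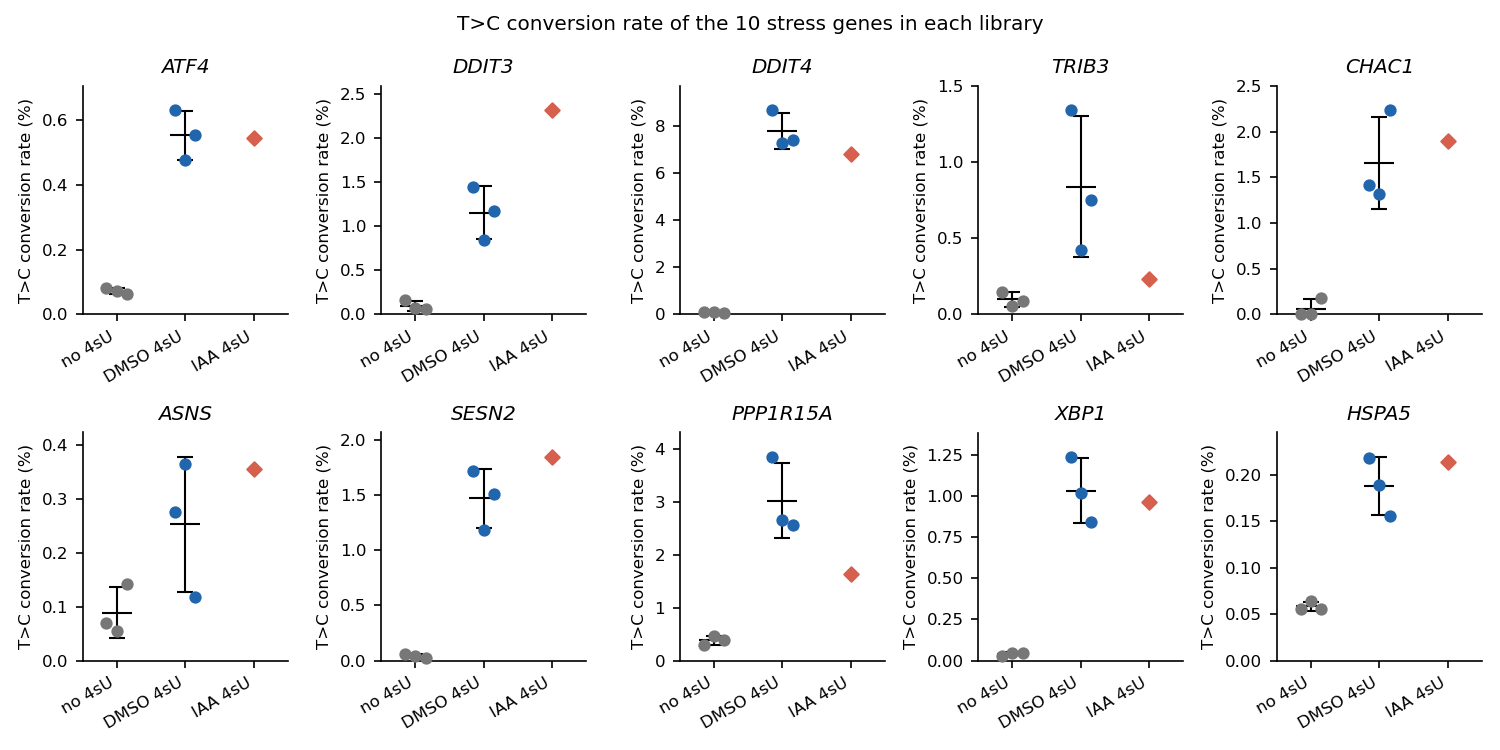
T>C conversion rate in percent (vertical axes from 0, a scale for each gene) of the 10 genes by group, with points for libraries, bars for mean ± SD over 3 libraries and diamonds for the single IAA library. The labelled DMSO libraries of DDIT4 sit at 7.27% to 8.64%, whereas those of ASNS overlap with the libraries without 4sU.

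In the order of mean rates, DDIT4, PPP1R15A and CHAC1 did not overlap with each other over the 3 labelled libraries, nor did ATF4 with ASNS. CHAC1, SESN2, DDIT3, XBP1 and TRIB3 each overlapped with the next in the order, as did ASNS with HSPA5, so their order is not fixed by these libraries.

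The same libraries were then compared in total mRNA, as log2(CPM + 1) with TMM library sizes. DDIT4 was the 1 member of 10 that changed in limma without a replicate block, and DDIT3 was called as well with the block. DDIT4 fell, while 1.8% of the 11528 genes tested fell (208 genes) and 0 rose by limma, where 949 were lower and 213 higher at an unadjusted p under 0.05. edgeR called 185 genes lower and 0 higher, and DESeq2 called 410 lower and 6 higher. The number called lower by limma was 268, 54 and 76 without no 4sU replicate 1, 2 and 3, and 109, 96 and 66 without DMSO 4sU replicate 1, 2 and 3. CPM are scaled to library size, so a fall is relative to the other genes. In bulk samples of this cell line, fewer cells with an mRNA and less of it per cell cannot be told apart.

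DDIT4 was at 85.1, 78.2 and 63.3 CPM without 4sU and at 13.2, 10.5 and 9.11 CPM with DMSO and 4sU. The groups were separated by a wide gap, and the mean of 75.5 ± 11.2 (SD, n = 3) was 6.92-fold that of 10.9 ± 2.05 (SD, n = 3). The log2 change was -2.75 (SE 0.17, limma adjusted p = 0.000181), and 6 of the 11528 genes had a larger fall. edgeR gave -2.82 (adjusted p = 0.000385). The call held in limma without each of the 6 libraries, with log2 changes from -2.87 to -2.63. DDIT4 thus had both the highest conversion rate and the largest fall in reads of the 10 genes, and the part that converted bases in its reads play in the fall was not tested.

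DDIT3 was at 8.01, 3.57 and 4.47 CPM without 4sU and at 3.05, 1.499 and 1.39 CPM with DMSO and 4sU. The groups did not overlap, but the log2 difference of -1.12 (SE 0.28) missed the threshold in limma (adjusted p = 0.0953) and edgeR (adjusted p = 0.140). It passed in DESeq2 (adjusted p = 0.0139) and in limma with the replicate number as a block (adjusted p = 0.0235), a fit in which 2.24% of all genes fell. In that fit, 2 of 10 members fell, DDIT3 and DDIT4.

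SESN2 was at 28.1, 30.2 and 31.4 CPM without 4sU and at 22.1, 13.7 and 19.1 CPM with DMSO and 4sU. Again the groups were apart, with a log2 difference of -0.77 (SE 0.20) that missed the threshold in limma (adjusted p = 0.110, and 0.0975 with the block) and passed in DESeq2 (adjusted p = 0.0356). XBP1 was at 78.5, 85.1 and 91.6 against 68.1, 61.3 and 70.2 CPM in its longer interval. The fit summed the reads of both XBP1 intervals, so that reads they share counted in each. It gave a difference of -0.42 (SE 0.16, limma adjusted p = 0.407). With the interval with most reads alone the difference was -0.39 (limma adjusted p = 0.428). DDIT3, DDIT4, SESN2 and XBP1 were thus the 4 of 10 members with all labelled libraries below all unlabelled ones, a pattern seen in 9.12% of all genes.

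HSPA5 was the 1 member of 10 with all labelled libraries above, a pattern of 10.3% of all genes. It was at 619, 660 and 644 CPM without 4sU and at 796, 696 and 754 CPM with DMSO and 4sU. The log2 difference of 0.16 (SE 0.16) did not pass in limma (adjusted p = 0.830).

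The groups overlapped in the other 5 genes. ATF4 was at 227, 217 and 152 CPM without 4sU and 225, 232 and 181 CPM with it, a log2 difference of 0.05 (SE 0.18). ASNS went from 42.5, 22.2 and 21.8 to 46.7, 28.2 and 33.6 CPM (0.29, SE 0.25), with replicate 1 the highest in each group. PPP1R15A was at 9.19, 6.79 and 9.63 against 8.50, 4.83 and 6.32 CPM (-0.41, SE 0.23). CHAC1 was at 2.32, 3.04 and 4.21 against 3.15, 1.54 and 3.39 CPM (-0.25, SE 0.28). TRIB3, at 14.7, 11.8 and 12.4 against 13.5, 11.9 and 14.1 CPM, differed by -0.04 (SE 0.16), and by 0.02 with total reads as the only scaling. The limma adjusted p of these 5 lay between 0.633 and 0.968. CHAC1, PPP1R15A and TRIB3, whose rates had risen with 4sU, were thus among the genes without a call in total mRNA.

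**Figure D2:**
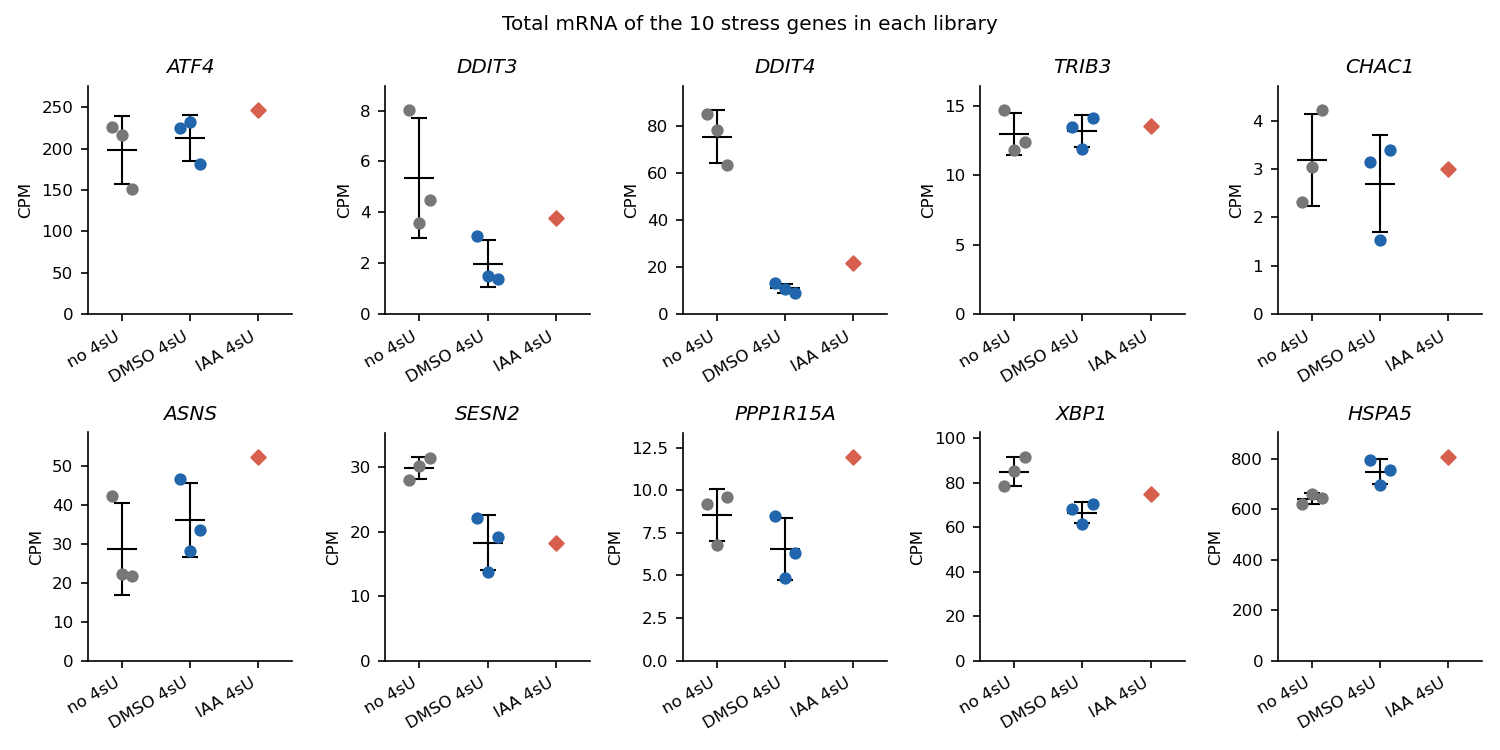
Total mRNA in CPM (vertical axes from 0, a scale for each gene) of the 10 genes by group, with points for libraries, bars for mean ± SD over 3 libraries and diamonds for the single IAA library. DDIT4 falls from 63.3 to 85.1 CPM without 4sU to 9.11 to 13.2 CPM with DMSO and 4sU, while the groups of ATF4 overlap.

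**Figure D3:**
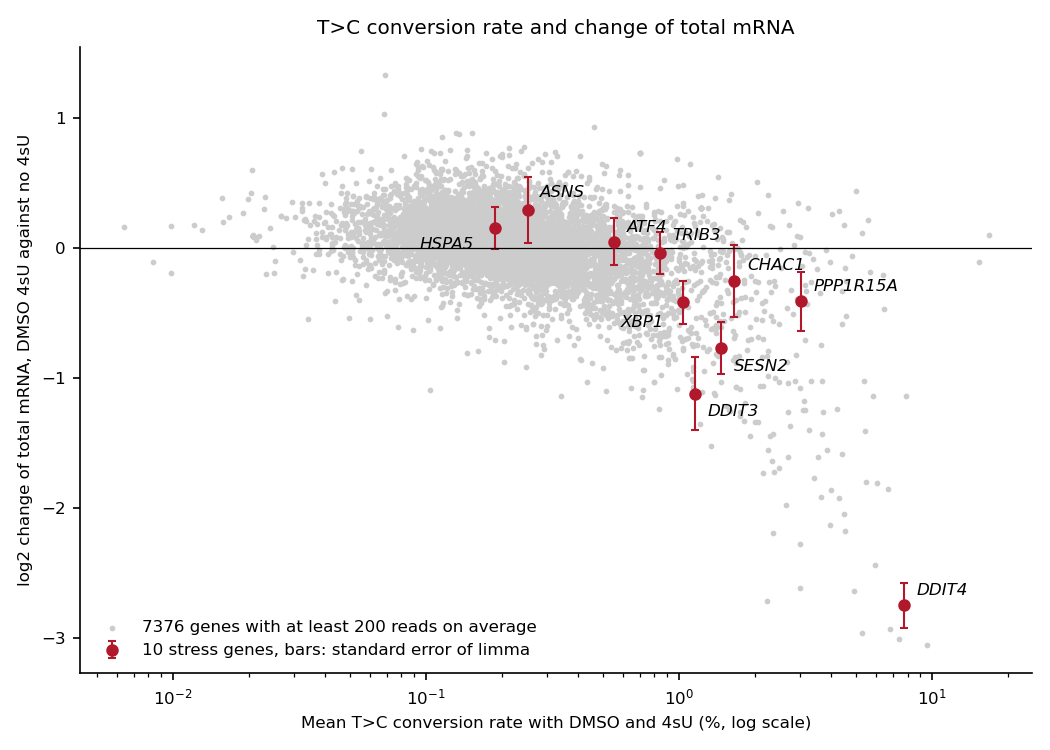
Mean T>C conversion rate with DMSO and 4sU (horizontal, percent, log scale) against the limma log2 change of total mRNA with DMSO and 4sU over no 4sU (vertical) for genes with at least 200 reads on average (grey) and the 10 members (red, bars for the standard error). DDIT4 lies at the lower right at 7.76% and -2.75, and PPP1R15A at 3.03% lies near the middle of the vertical axis at -0.41.

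By a distance over the 7 libraries (root mean square of the difference in log2(CPM + 1), each gene centred on its mean), the genes most like DDIT4 among 5115 with at least 20 CPM were NFKBIA at 0.244, DUSP6 at 0.346 and KLF6 at 0.370, where the median gene stood at 1.34. NFKBIA went from 258 to 304 CPM without 4sU to 28.6 to 55.0 CPM with DMSO and 4sU. Since the distance was taken over these same libraries, the fall of such genes follows from the choice. The mean rate with DMSO and 4sU was 6.79% for NFKBIA, 2.99% for DUSP6 and 5.93% for KLF6.

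The second comparison, IAA with 4sU against DMSO with 4sU, asked what loss of JUN does to newly made and total mRNA. With 1 IAA library there is no test. A gene was counted when the IAA value lay at least 1 log2 unit from the DMSO 4sU mean and outside the DMSO 4sU range. In the rate, after centring each library on its median, 1 of 10 members met this rule, TRIB3, and 21.4% of 11762 genes did (2522 genes, of which 1213 were higher, and 2277 with 1478 higher without centring). Setting each DMSO 4sU library in turn against the other 3 labelled libraries gave 2475 to 2782 genes, a range that holds the IAA count. Of the 7361 genes with at least 200 reads on average, TRIB3 among them, 822 met the rule, so 21.4% is not a share at the depth of TRIB3. In total mRNA, 0 of 10 members met it, beside 0.209% of 11474 genes (24, of which 16 were higher, and 31 with 28 higher when total reads were the only scaling), while the DMSO 4sU libraries gave 14 to 137.

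TRIB3 had a rate of 0.231% with IAA, below the 0.423% to 1.34% with DMSO and 4sU. The centred log2 difference was -1.68, beside an SD of 0.59 between the DMSO 4sU libraries. By the same measure DMSO 4sU replicate 1 lay 1.27 above the other 3 labelled libraries, the IAA library among them. The total mRNA of TRIB3, at 13.6 CPM, lay within the DMSO 4sU range.

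PPP1R15A stood just short of the 1 log2 unit that the rule asks for. Its rate was 1.63% with IAA against 2.57% to 3.85% with DMSO, a difference of -0.9996 with an SD of 0.11. With 1 DMSO 4sU library left out it ranged from -1.04 to -0.92, and so lay on either side of the limit. Without centring the rate difference of PPP1R15A was -0.85, short of the limit. Its total mRNA went the other way, at 11.97 CPM (95% exact Poisson interval of the count 10.5 to 13.6) against 4.83 to 8.50 CPM, a difference of 0.73. Such intervals cover counting error only.

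DDIT3 was higher with IAA in both measures. Its rate was 2.31% against 0.842% to 1.44%, a difference of 0.85 with an SD of 0.23. Without centring the difference was 1.01, which met the rule. Its total mRNA was 3.79 CPM (2.99 to 4.74) against 1.39 to 3.05 CPM, a difference of 0.66 with an SD of 0.42, on 76 reads. The count interval overlapped with that of DMSO 4sU replicate 1, which was 2.36 to 3.89.

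DDIT4 was at 21.9 CPM with IAA (19.9 to 24.1), above the 9.11 to 13.2 CPM with DMSO and 4sU and below the 63.3 to 85.1 CPM without 4sU. The difference of 0.87 was the largest of the 10 in total mRNA, beside an SD of 0.23, and just met the limit of 1 log2 unit without DMSO 4sU replicate 1. Its rate was lower than in all DMSO 4sU libraries, at 6.78%, a difference of -0.34.

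The other members lay closer to the DMSO 4sU libraries. ASNS was at 52.4 CPM and ATF4 at 246 CPM with IAA, both above all DMSO 4sU libraries, with differences of 0.47 and 0.13 beside SDs of 0.35 and 0.18. ASNS was higher still than replicate 1 of either other group. XBP1, SESN2, CHAC1 and HSPA5 differed by 0.09, -0.06, 0.09 and 0.02 in total mRNA. With 1 DMSO 4sU library left out, the sign of SESN2 (-0.24 to 0.08), CHAC1 (-0.16 to 0.24) and HSPA5 (-0.03 to 0.06) turned. In the centred rate, ATF4 (-0.17) and XBP1 (-0.24) lay below all DMSO 4sU libraries and SESN2 (0.18) above all, while CHAC1 (0.08), ASNS (0.37) and HSPA5 (0.00) lay within the range. Without centring, ATF4 at 0.544% (-0.02) and XBP1 at 0.963% (-0.09) also lay within it. The rate difference of ASNS ranged from 0.06 to 0.71 with 1 DMSO 4sU library left out. The median over the members was -0.08 in the rate and 0.11 in total mRNA, and both medians over all genes were 0.00.

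**Figure D4:**
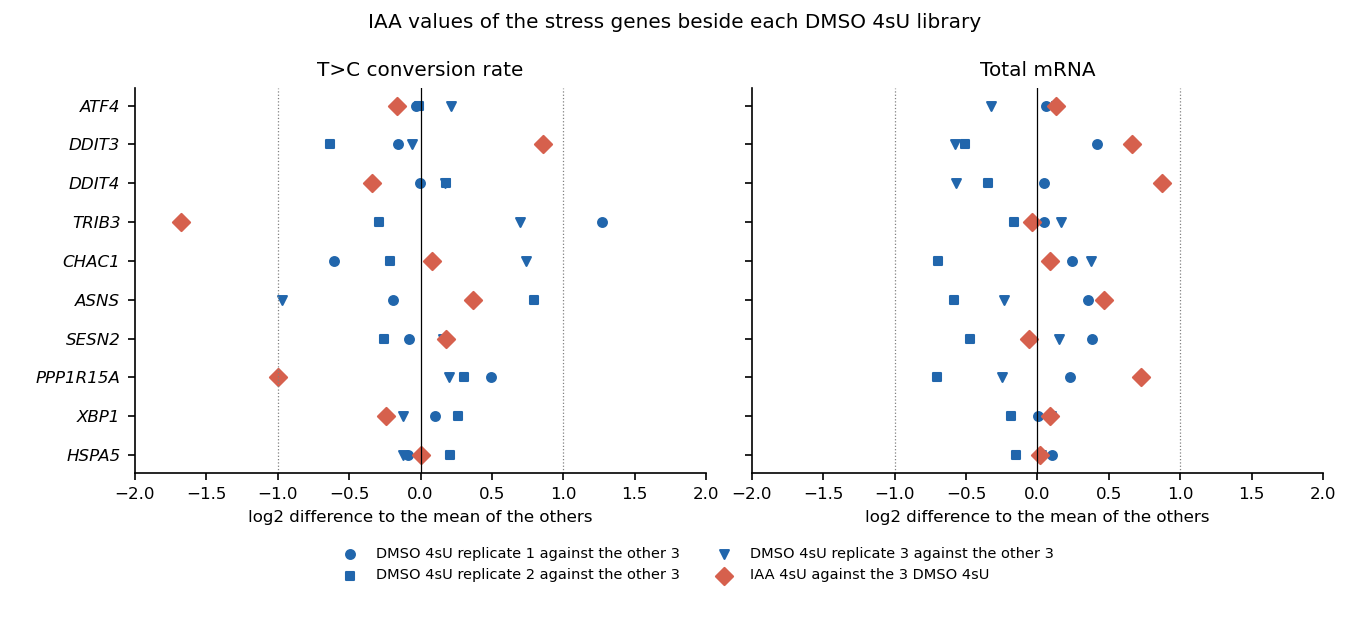
log2 difference in T>C conversion rate (left, libraries centred) and total mRNA (right) for the IAA library against the 3 DMSO 4sU libraries (red diamonds) and for each DMSO 4sU library against the other 3 labelled libraries (blue), with dotted lines at 1 log2 unit. TRIB3 at -1.68 lies past the line on the left, and no diamond does on the right, where DDIT4 is the farthest at 0.87.

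The wider setting came from 3 lists of genes of the same pathways. Of the ATF4 targets, 28 of 48 tested rose in rate with 4sU and 0 fell, with a median log2 change of 1.24, beside 48.6% and a median of 1.27 over all genes. In total mRNA 1 of 49 fell, which was DDIT4, and 0 rose by limma, with 4 lower and 0 higher at an unadjusted p under 0.05. Without the members these counts were 23 of 42 in rate and 0 of 43 in total mRNA. Most genes of the 3 lists had at least 200 reads on average. Of the 7364 genes of that depth, tested on their own, 4520 rose in rate, so 48.6% is not a share at like depth for any of the lists.

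Of the genes of eIF2 signalling, 11 of 21 rose in rate (median 1.02), and in total mRNA 0 of 21 were called in either direction by limma, with 1 lower and 1 higher at an unadjusted p under 0.05. Of the unfolded protein response genes, 19 of 43 rose in rate (median 0.81) and 1 of 45 fell in total mRNA, where the shares over all genes were 48.6% and 1.8%. The median of total mRNA was 0.09, -0.02 and 0.10 for the ATF4 targets, eIF2 signalling and the unfolded protein response, beside 0.01 over all genes. Under the IAA rule, 4 of 48, 3 of 20 and 1 of 44 genes of these lists were counted in the rate. The share over all genes was 21.4%, but 822 of the 7361 genes with at least 200 reads met the rule. Of the 108 list genes that are no members, 90 had that depth, so 21.4% is not a share at like depth. In total mRNA 0 genes of these lists were counted, beside 0.209% of all genes.

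The gene called in the unfolded protein response was HERPUD1, which takes part in ER-associated degradation. It was at 254, 244 and 266 CPM without 4sU and at 113, 122 and 138 CPM with DMSO and 4sU, a log2 change of -1.10 (SE 0.16, limma adjusted p = 0.00813). Without no 4sU replicate 2 or 3 the adjusted p was 0.0566 and 0.0549. HERPUD1 was at 118 CPM with IAA, within the DMSO 4sU range, and its rate was 0.513% ± 0.148 (SD, n = 3).

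Among the 90 other list genes with at least 200 reads, the highest rates with DMSO and 4sU belonged to OS9, DNAJB9, PPP1R15B, SARS1 and GDF15. OS9, a lectin of ER-associated degradation, had 3.23% ± 0.172 (SD, n = 3), but also 1.60%, 3.35% and 2.94% without 4sU, so that its rate did not rise beyond the spread (limma adjusted p = 0.559). DNAJB9, a co-chaperone of HSPA5, had 1.91% ± 0.560 (SD, n = 3) and at most 0.0920% without 4sU. PPP1R15B, the constitutive counterpart of PPP1R15A, had 1.01% ± 0.258 (SD, n = 3). SARS1, a seryl-tRNA synthetase, had 0.933% ± 0.506 (SD, n = 3), and GDF15, a secreted stress cytokine, had 0.824% ± 0.207 (SD, n = 3). These 4 rose (limma adjusted p from 0.00149 to 0.0217), but GDF15 was no longer called without no 4sU replicate 2 or 3 or without DMSO 4sU replicate 1 or 2, where its adjusted p was 0.0550 to 0.0678. With centred libraries SARS1 (adjusted p = 0.117) and GDF15 (adjusted p = 0.587) were not called by limma. The log2 change of SARS1 was 2.87, and 1.38 when its interval with most reads was used.

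The lowest rates were those of EIF2B2 (0.0631%), PSAT1 (0.0654%), CREB3L2 (0.0700%), DNAJB11 (0.0701%) and IMPACT (0.0742%). None of these 5 differed from the libraries without 4sU beyond the spread in limma. The list genes with at least 200 reads that met the IAA rule in the rate were EIF2AK1 (-1.54), an eIF2 kinase, ALDH18A1 (-1.37), an enzyme of proline synthesis, and EIF2B3 (-1.29), a subunit of the exchange factor of eIF2. All of these fell short of 1 log2 unit with a pseudocount of 0.002, at -0.72 for EIF2AK1 and ALDH18A1 and -0.73 for EIF2B3. EIF2B3 was also short of it with the read-weighted rate (-0.55) and without DMSO 4sU replicate 3 (-0.63). EIF2AK1 was at 0.0240% with IAA and at 0.125% to 0.162% with DMSO and 4sU, and its 0.100% to 0.103% without 4sU also lay above the IAA value.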

How the data were processed

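The authors processed reads with a SLAM-Seq pipeline written in Nextflow. For every 3′ interval they deposited the T>C conversion rate as a fraction of T positions, without background subtraction, and a signal labelled CPM, in reads scaled to library size, whose shared intervals repeat reads. The coverage of T positions is not given, so the error of a single rate is unknown. CPM were whole multiples of 1 read in 100% of cases (tolerance 0.01), which gave the reads. The labels name hg19. RefSeq IDs were matched by a RefSeq table of GRCh38.p14 (97.7% of rows), and unmatched rows were kept under their accession. Rates of a gene's distinct intervals were averaged and reads summed. Members and lists were chosen with earlier results of these data known.

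Genes were tested with limma (3.58.1, R 4.3.3, trended and robust variances) in 3 DMSO 4sU and 3 no 4sU libraries. Rates had to be above 0, or total mRNA at least 1 CPM, in 3 of 6 libraries (2 of the 4 labelled ones for IAA). Alternatives, run on these reads with edgeR 4.0.16 and DESeq2 1.42.0 among others, included leaving out each library, and the fits were tested on simulated data. Named were all members, and of the other list genes up to 8 called in total mRNA, the 5 highest and 5 lowest rates with at least 200 reads, and up to 5 past the IAA rule. Likeness was computed for the members with the largest fall and rise in total mRNA, and that for the rise is not reported here. Same-numbered libraries deviated together in total mRNA (correlations of 0.39, 0.32 and 0.36 over 11528 genes), so the numbers pair them there, and not in the rates (0.0043, -0.0019 and -0.031).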

Additional observations from a re-analysis of the deposited data

How the results depend on the processing

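With libraries centred on their median, the rate change of ASNS was -0.29, that of HSPA5 -0.24 and that of OS9 -1.02, and 920 genes rose and 310 fell. The genes with a lower rate numbered 4 where every library had a rate above 0, 3 with no filter, 6 with at least 200 reads on average and 3 to 23 with 1 library left out. The genes with a higher rate numbered 3683 to 4785 with 1 library left out. With total reads only, the total mRNA difference of TRIB3 was 0.024. With 1 library left out, that of ATF4 ranged from -0.094 to 0.17 and that of TRIB3 from -0.081 to 0.029. The genes lower in total mRNA numbered 410 and those higher 6 in DESeq2, 2 were higher with no filter, and 54 to 268 were lower and 0 to 1 higher with 1 library left out. The IAA rule in the rate gave 1507 genes with a pseudocount of 0.002. It gave 1398 of 9418 genes where all libraries had a rate above 0 and 822 of 7361 with at least 200 reads. In total mRNA it gave 74 with a pseudocount of 0.25, 7 with one of 4, 105 without DMSO 4sU replicate 1 and 13 without replicate 3. The cause of these shifts was not tested, beyond the fewer genes or libraries that some settings leave.

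With the replicate block, 258 genes fell in total mRNA and 4228 rose in the rate, of which 198 and 4070 called genes in either direction were shared with the fit without it. The pairing changed the call of DDIT3 in total mRNA and of no other named gene. No paired analysis was possible for IAA because its 3 columns hold 1 library.

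Depth limits CHAC1 and DDIT3 most, with 28 to 80 reads in most libraries, and PPP1R15A with 116 to 240.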
